A study of Mus musculus with 4 samples.

Results

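The galectin family was examined in 4T1-S and 4T1-A, a pair of sub-lines of the mouse breast cancer line 4T1, which came from a tumour of a BALB/c mouse. The members were the spots other than controls whose gene name in the array files was Lgals1, Lgals2, Lgals3, Lgals3bp, Lgals4, Lgals7, Lgals8 or Lgals9, which gave 10 probes of 8 genes among 41174 probes of 27962 gene names. Lgals4 and Lgals8 had 2 probes each and the other 6 genes had 1. Total RNA was measured on 2 arrays of 4T1-S and 2 of 4T1-A, and the labels give no treatment, passage or culture condition beyond the shared parental line 4T1. The series title calls 4T1-S highly immunogenic, and the comparison asks how its transcripts differ from those of 4T1-A. Whether a sub-line is a clone, and whether its 2 arrays came from separate cultures, is not given in the labels, so p-values reflect the spread of these arrays alone, and that spread may be technical.

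Galectins are lectins that bind beta-galactosides through a conserved carbohydrate recognition domain. They are made in the cytosol without a signal peptide, leave the cell by an unconventional route, and cross-link glycoproteins at the cell surface, where several of them act on T cells, while inside the cell some mark damaged endosomes and lysosomes. Galectin-1, galectin-2 and galectin-7 (Lgals1, Lgals2, Lgals7) carry a single recognition domain, galectin-3 (Lgals3) joins one to a collagen-like tail, and galectin-4, galectin-8 and galectin-9 (Lgals4, Lgals8, Lgals9) carry a pair in tandem. Lgals3bp is not a galectin but encodes a secreted glycoprotein that galectin-3 and galectin-1 bind, so the members comprise 7 galectins and this ligand. In carcinoma, galectin-1, galectin-3 and galectin-9 are known above all as modulators of lymphocytes and myeloid cells.

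Each level below is the spot's processed intensity divided by the 75th percentile of its array, called the scaled signal. It is a within-probe measure, and levels of different probes are not compared because probes differ in how strongly they hybridise. A difference is the log2 value of 4T1-S less that of 4T1-A, given with the standard error (SE) of limma's fit. The fit covered the 23682 probes that 4T1-S, 4T1-A or both showed well above background in duplicate. P-values were adjusted over all of these by the Benjamini-Hochberg method, and a probe was called at an adjusted p under 0.05. The 4 arrays shared 1 slide and 1 scan, with 4T1-S at positions 3 and 4 and 4T1-A at positions 1 and 2, so sub-line and slide position cannot be told apart. The percent of spots well above background was 59.2 and 58.2 on the 4T1-S arrays and 54.9 and 56.3 on the 4T1-A arrays. Replicate arrays correlated at r = 0.991 in both sub-lines across probes, which are not independent. Arrays of different sub-lines correlated at r = 0.969 to 0.978. The log2 difference of replicate arrays had an SD across probes of 0.38 in 4T1-S and 0.39 in 4T1-A. Precision is limited by having 2 arrays per sub-line.

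Of the 10 galectin probes, 9 passed the filter on background and were tested. Lgals9 was the 1 probe called, higher in 4T1-S, 0 were called lower by limma, and 8 did not pass. Over all probes tested, 4.54% were called, 2.18% higher and 2.36% lower. At an unadjusted p under 0.05 there were 4 galectin probes, of Lgals9, Lgals8, Lgals3bp and Lgals4, against 25.4% of all probes. The arrays of the sub-lines did not overlap for 7 galectin probes, 6 higher and 1 lower in 4T1-S, but with 2 arrays per sub-line this was so for 56.5% of all probes, 37.9% higher and 18.7% lower. Of the 6, Lgals1 turned lower with scaling to the array median (-0.18) or quantile normalization (-0.0037). Scaling to the array median moved the median of all probes to -0.18 and split the calls over all probes into 224 higher and 1159 lower, against 517 and 558 as reported, and quantile normalization split them into 308 and 581. The median difference of the 9 tested galectin probes was 0.34, against 0.11 over all probes tested.

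**Figure D1:**
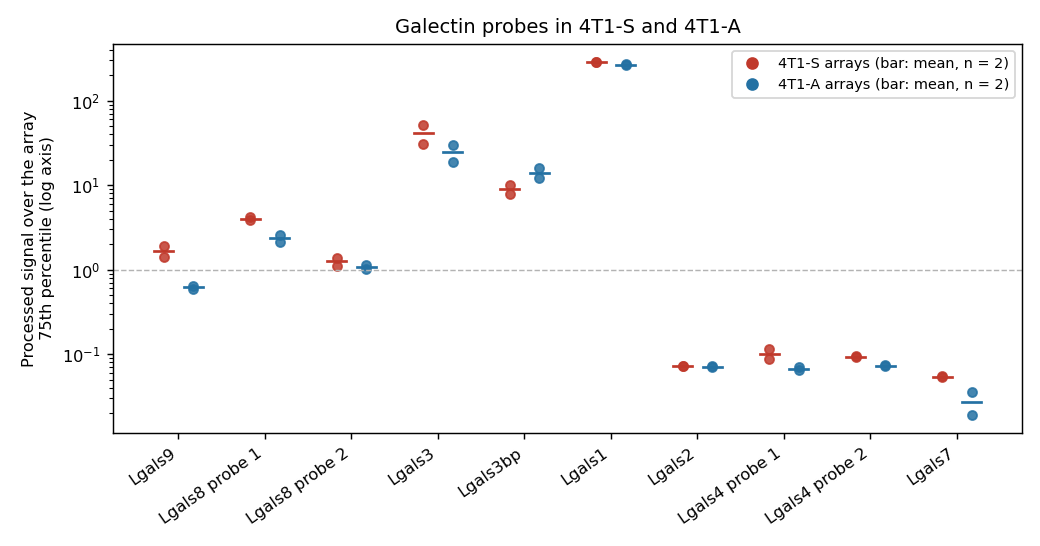
Scaled signal (processed intensity over the array's 75th percentile, log axis) of the 10 galectin probes, with 4T1-S arrays left and 4T1-A arrays right of each position. Points are single arrays and bars are means of 2 arrays. Lgals9 lies above 1 on both 4T1-S arrays and below 1 on both 4T1-A arrays, and levels are to be read within a probe only.

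Lgals9, the T-cell-active tandem-repeat galectin that can bind the checkpoint receptor TIM-3, was higher in 4T1-S. Its scaled signal was 1.40 and 1.88 in 4T1-S, against 0.588 and 0.647 in 4T1-A. Both 4T1-S arrays therefore exceeded both 4T1-A arrays by more than the replicates of either sub-line differed. The means were 1.64 ± 0.341 in 4T1-S and 0.617 ± 0.0413 in 4T1-A (SD, n = 2 arrays each). The difference of the fitted log2 means was 1.40 ± 0.22 (SE), which is 2.63-fold, with a 95% interval from 0.89 to 1.91 and adjusted p = 0.0140 by limma. The scanner software put the error of each of these 4 spots between 9.16% and 9.68% of its signal. The call was lost without 4T1-S replicate 2, at 1.18 and adjusted p = 0.0946, and with no filter on dim probes, at adjusted p = 0.0889. Wherever 1 array is left out, its sub-line keeps a single array, which is assumed to vary like the other sub-line, so a call gained or lost in that way rests on that assumption. Probes of like brightness, within 0.5 log2 units of the mean of Lgals9 over the arrays, had a median difference of 0.00198 on the log2 scale. In bulk RNA such as this, a change in the number of expressing cells and a change in RNA per cell cannot be told apart.

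By one measure of likeness, the Euclidean distance between log2 profiles over the 4 arrays after centring each, the genes nearest to Lgals9 were Adamtsl5 (distance 0.0856), which encodes a secreted ADAMTS-like protein, Serpinb6b (0.0985), an intracellular serpin, and the transcript CN524910 (0.106). The scaled signal of Adamtsl5 was 0.496 and 0.630 in 4T1-S, against 0.193 and 0.214 in 4T1-A. That of Serpinb6b was 3.27 and 4.28 in 4T1-S, against 1.43 and 1.60 in 4T1-A. With only 4 arrays, many genes can share such a profile.

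Lgals9 and Lgals3bp are both known as genes that interferon can induce, and their differences had opposite signs, although that of Lgals3bp did not pass the test (adjusted p = 0.142 by limma), so their promoters are shown. The sequences are from RefSeq (assembly GRCm38.p6), 5′ to 3′ on the gene's own strand, and end 1 base before the annotated start of the gene. Capitals mark matches to the core of the interferon-stimulated response element, the site bound by interferon regulatory factors, searched on both strands as a pair of GAAA half-sites with any 2 bases between them and, in a second form added after the sequences were read, with any 3 bases between them.
Lgals9, chr11:78984925-78985174, minus strand: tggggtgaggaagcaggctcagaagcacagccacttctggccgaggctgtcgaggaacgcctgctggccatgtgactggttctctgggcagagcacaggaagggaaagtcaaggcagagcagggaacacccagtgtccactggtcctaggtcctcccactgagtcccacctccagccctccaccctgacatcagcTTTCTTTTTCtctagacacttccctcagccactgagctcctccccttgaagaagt
Lgals3bp, chr11:118401960-118402209, minus strand: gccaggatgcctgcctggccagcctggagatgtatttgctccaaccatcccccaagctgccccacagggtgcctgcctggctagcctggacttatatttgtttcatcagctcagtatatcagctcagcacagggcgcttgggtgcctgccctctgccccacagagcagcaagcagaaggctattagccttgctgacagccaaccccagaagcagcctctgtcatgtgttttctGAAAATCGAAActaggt
The promoter of Lgals9 held a match to the first form on its opposite strand at positions -55 to -46 from the start (TTTCTTTTTC) and another just past the start, at 16 to 25 (TTTCTGTTTC). That of Lgals3bp held none of the first form and 1 of the second, GAAAATCGAAA, at -17 to -7. Of the 7 members with a window of 250 bases before and 50 after the start, no other member matched either form. Lgals1 had no such window and was not searched. Among all 32851 such windows, 3.44% held the first form and 2.75% the second. Because the second form was chosen with the sequences in view, its share does not measure how unusual the Lgals3bp match is. A match of letters is a description of the sequence and does not show that a factor binds there.

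Lgals3bp, the secreted galectin-3 ligand, lay lower in 4T1-S without passing the test. Its scaled signal was 7.84 and 9.99 in 4T1-S, against 12.04 and 15.95 in 4T1-A. Both 4T1-S arrays were below both 4T1-A arrays, but the replicates within each sub-line differed by 0.35 and 0.41 log2 units. The difference was -0.65 ± 0.23 (95% interval -1.19 to -0.11), and limma gave adjusted p = 0.142 (unadjusted p = 0.0249). Probes of like brightness had a median difference of 0.036. The difference stayed negative under each of the 14 alternatives, between -0.94 and -0.44, and passed under 1 of them, the replicate block.

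The signals of 2 members can also be set against each other within an array, which dividing each array by its own constant does not affect, whereas quantile normalization can. The log2 ratio of the Lgals9 signal to the Lgals3bp signal was -2.49 and -2.41 on the 4T1-S arrays, against -4.36 and -4.62 on the 4T1-A arrays. The ratio was 2.04 log2 units higher in 4T1-S. This restates the differences of the 2 genes, a pair chosen after their opposite signs were seen, and adds no separate support. An exact permutation test (2-sided) gave p = 0.333, the smallest that 2 against 2 arrays allow, so this value cannot pass a threshold. The log2 ratio of Lgals9 to Lgals1 was -7.69 and -7.23 in 4T1-S, against -8.81 and -8.69 in 4T1-A. This ratio too differed more between the sub-lines than between replicates.

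**Figure D2:**
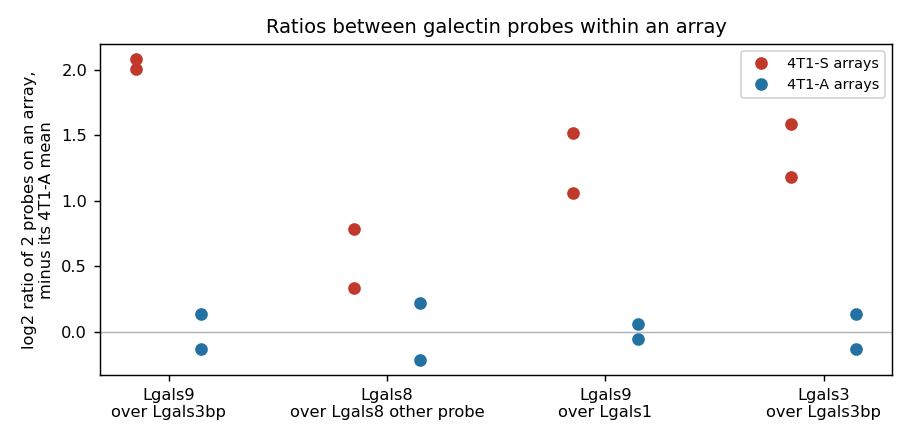
Log2 ratio of a pair of galectin probes measured on the same array, minus the 4T1-A mean of that ratio, with 4T1-S arrays left and 4T1-A arrays right. The ratio of Lgals9 to Lgals3bp lies 2.04 log2 units higher in 4T1-S on average, and points are single arrays.

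Lgals3, whose product is the chimeric galectin of carcinoma cells and macrophages, had a scaled signal of 30.7 and 51.7 in 4T1-S, against 19.0 and 30.2 in 4T1-A. The lower 4T1-S array and the higher 4T1-A array nearly met, and that gap was far smaller than the differences between replicates. The replicates differed by 0.75 log2 units in 4T1-S and 0.67 in 4T1-A, and the sub-lines by 0.74 ± 0.32 (95% interval -0.0105 to 1.48, adjusted p = 0.202 by limma). Lgals3 changed its call in 2 settings, without 4T1-A replicate 2, at 1.07 and adjusted p = 0.0305, and with the replicate block, at adjusted p = 0.0212. The difference was 0.36 without 4T1-S replicate 2, 0.40 without 4T1-A replicate 1 and 0.45 with scaling to the array median, and 1.11 without 4T1-S replicate 1. The log2 ratio of Lgals3 to its ligand Lgals3bp within an array was 1.97 and 2.37 in 4T1-S, against 0.66 and 0.92 in 4T1-A. On that ratio, whose replicates differed by less than those of Lgals3 alone, the sub-lines stood 1.38 log2 units apart (exact permutation p = 0.333, the smallest possible). The ratio restates the differences of Lgals3 and Lgals3bp, neither of which passed the test, and adds no separate support.

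Lgals8, a tandem-repeat galectin that binds integrins outside the cell and, in human cells, recruits the autophagy receptor CALCOCO2 to damaged vesicles inside it, was measured by 2 probes with the same transcript accession. The first probe (A_51_P316981) gave 3.84 and 4.196 in 4T1-S, against 2.14 and 2.60 in 4T1-A. Here the sub-lines did not overlap, and the difference of 0.77 ± 0.20 (95% interval 0.30 to 1.24, 1.70-fold) did not pass, at adjusted p = 0.0774 by limma. It passed without 4T1-A replicate 2, at 0.91 and adjusted p = 0.0480, and with the replicate block, at adjusted p = 0.0194, and was 0.48 with scaling to the array median. The second probe (A_52_P598128) gave 1.39 and 1.12 in 4T1-S, against 1.14 and 1.02 in 4T1-A. Its arrays overlapped, and its difference was 0.21 ± 0.21 (95% interval -0.27 to 0.69, adjusted p = 0.568), turning to -0.082 with scaling to the array median. The log2 ratio of the first to the second probe was 1.46 and 1.91 in 4T1-S, against 0.91 and 1.35 in 4T1-A, and the gap between 1.46 and 1.35 was smaller than the differences between replicates. Whether the probes moved differently is thus not shown, and the exact permutation test could again reach only p = 0.333. The mean of both probes differed by 0.49 (adjusted p = 0.104).

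**Figure D3:**
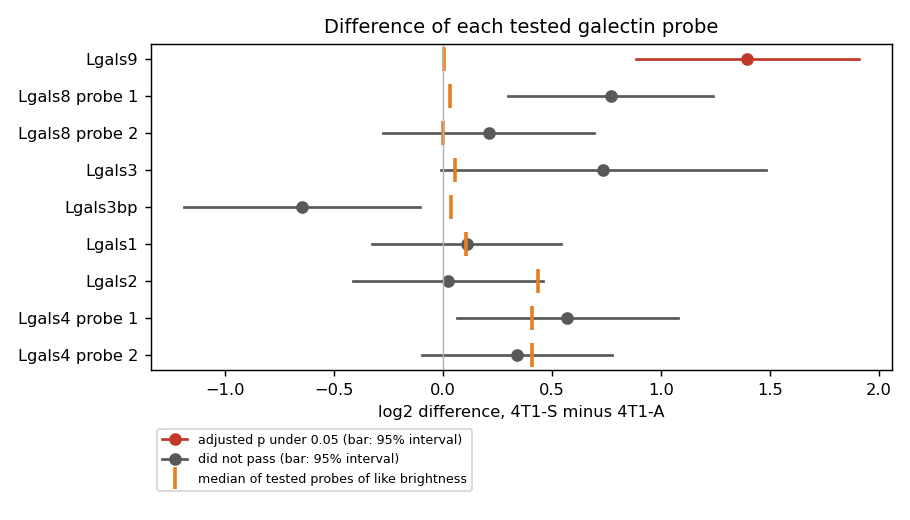
Log2 difference (4T1-S minus 4T1-A) of the 9 tested galectin probes with the 95% interval of limma's fit, and, as an orange tick, the median of all tested probes within 0.5 log2 units of the same brightness. Probe 1 of Lgals8 is A_51_P316981 and probe 1 of Lgals4 is A_52_P634250. The interval of Lgals9 runs from 0.89 to 1.91. The dim probes of Lgals4 lie near the ticks of their own brightness, while the dim probe of Lgals2 lies below its tick (0.022 against 0.44).

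Lgals1, the prototype galectin that can trigger death of activated T cells, had a very bright spot and did not pass the test. Its scaled signal was 289 and 283 in 4T1-S, against 263 and 268 in 4T1-A. The arrays did not overlap, but the difference was small, at 0.11 ± 0.19 (95% interval -0.33 to 0.54, adjusted p = 0.758 by limma). None of the 4 spots was saturated. Its direction is not settled, since it was -0.18 with scaling to the array median and -0.0037 with quantile normalization.

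Lgals2 and Lgals4, galectins best known from the gut epithelium, were faint but well above background on all 4 arrays. The scaled signal of Lgals2 was 0.0729 and 0.0716 in 4T1-S, against 0.0725 and 0.0699 in 4T1-A. These arrays overlapped, and the difference was 0.022 ± 0.19 (95% interval -0.41 to 0.46, adjusted p = 0.956), turning to -0.27 with scaling to the array median, to -0.30 with quantile normalization and to -0.0047 without 4T1-A replicate 2. One probe of Lgals4 (A_52_P634250) gave 0.116 and 0.0869 in 4T1-S, against 0.0710 and 0.0644 in 4T1-A. The other (A_51_P497100) gave 0.0940 and 0.0920 in 4T1-S, against 0.0753 and 0.0717 in 4T1-A. Neither passed, with differences of 0.57 ± 0.22 (adjusted p = 0.159) and 0.34 ± 0.19 (adjusted p = 0.294). Among tested probes, those as bright as the Lgals4 probes had a median difference of 0.41 and those as bright as Lgals2 one of 0.44. Dim probes enter the test through the sub-line in which they are above background, and more spots were above it in 4T1-S, so these medians do not describe all dim probes. The scanner software put the error of the Lgals4 spots between 15.4% and 20.8%. With quantile normalization the A_51_P497100 probe differed by 0.045, and with scaling to the array median by 0.050. The A_52_P634250 probe differed by 0.28 under both, by 0.36 without 4T1-S replicate 1, and passed with the replicate block (adjusted p = 0.0484). Lgals6 is a near-identical copy of Lgals4, and which of them these probes read was not tested.

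Lgals7, a galectin of stratified epithelia, stayed near background on all 4 arrays, passing the scanner's test on none, and was not tested. Its scaled signal was 0.0545 and 0.0537 in 4T1-S, against 0.0190 and 0.0353 in 4T1-A, with a scanner error between 25.6% and 64.5% of the signal. Such values carry only an upper bound, so no fold is given.

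What galectins bind depends on enzymes that build galactose-bearing glycans and on those that cap them, and these genes were described from lists, each gene by its brightest probe. Over 16170 genes, 4.98% were called, 2.42% higher and 2.56% lower, and the median difference was 0.13. Of 20 tested genes that synthesise branched or galactose-bearing glycans, 1 rose, 2 fell and 17 did not pass, with a median of 0.017. Mgat3, which adds the bisecting N-acetylglucosamine that limits branching of N-glycans, had a scaled signal of 0.143 and 0.193 in 4T1-S, against 0.0118 and 0.0117 in 4T1-A, where it was not well above background. By its brightest probe, the level in 4T1-S was higher by at least 5.40-fold (fitted difference 3.82, adjusted p = 1.19e-04 by limma). The other tested probe of Mgat3 had a smaller fitted difference, 2.29. B4galt6, a galactosyltransferase that makes lactosylceramide, had 0.0203 and 0.0130 in 4T1-S, not well above background there, against 0.270 and 0.401 in 4T1-A. Its level in 4T1-S was lower by at least 8.53-fold (adjusted p = 2.56e-04). For these bounds, the dim sub-line was given on each array the faintest signal of any probe well above background, or the probe's own signal where that was higher. The brightest Mgat3 probe and the B4galt6 probe passed the filter only through the sub-line in which they were above background. The adjusted p-values belong to limma's fit without the bounds, which took signals near background as measured levels. They therefore test neither the bounds nor a difference of measured levels. The bounds make no allowance for the spread between arrays. Mgat4a, which adds a branch to N-glycans, had 0.189 and 0.177 in 4T1-S, against 0.334 and 0.401 in 4T1-A, and differed by -1.002 ± 0.20 (adjusted p = 0.0361). That call was lost with normexp (-0.49, adjusted p = 0.125), with no filter on dim probes (0.110), without 4T1-A replicate 2 (0.0590) and without 4T1-S replicate 1 (0.124) or 2 (0.171).

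Sialic acid on terminal galactose can mask it from some galectins, most strictly in the linkage made by St6gal1. Whether the differences below change the binding of any galectin was not tested. Of 12 tested genes of glycan capping and trimming, 0 rose, 3 fell and 9 did not pass, with a median of -0.15 and 25% called against 4.98% of all genes. The list was chosen with earlier results of these data known, so these shares are a description and not a test. All 3 that fell are sialyltransferases, and the other 3 sialyltransferases of the list did not pass, namely St3gal1 (-0.033), St3gal2 (-0.53) and St3gal3 (0.038). St3gal6 had a scaled signal of 0.133 and 0.122 in 4T1-S, against 1.095 and 1.08 in 4T1-A, 8.53-fold lower in 4T1-S (-3.09 ± 0.19, adjusted p = 1.58e-04 by limma). St3gal4 had 0.731 and 0.658 in 4T1-S, against 1.33 and 1.41 in 4T1-A, and differed by -0.98 ± 0.19 (adjusted p = 0.0337), with a second probe at -1.05. St6gal1 had 0.536 and 0.519 in 4T1-S, against 0.980 and 1.09 in 4T1-A, and differed by -0.97 ± 0.19 (adjusted p = 0.0345). The sub-lines were far apart on all 3 relative to their replicates. The calls of St3gal4 and St6gal1 were lost without either 4T1-S array, at adjusted p between 0.106 and 0.171, and with no filter on dim probes (0.102), and that of St6gal1 also without 4T1-A replicate 2 (0.0515) and with normexp (0.0569).

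Of 20 tested glycoproteins that galectins are known to bind, 0 rose, 2 fell and 18 did not pass, with a median of 0.103. At an unadjusted p under 0.05 by limma there were 5 of these 20, against 4411 of all 16170 genes. The epidermal growth factor receptor Egfr had a scaled signal of 0.0546 and 0.0479 in 4T1-S, against 0.526 and 0.487 in 4T1-A, a difference of -3.30 ± 0.19 (adjusted p = 1.33e-04 by limma), but its 3 tested probes ranged from -3.30 to -0.10. The adhesion molecule Alcam, a galectin-8 ligand, had 0.675 and 0.646 in 4T1-S, against 1.40 and 1.195 in 4T1-A. It differed by -0.97 ± 0.20 (adjusted p = 0.0378 by limma), a call lost without 4T1-A replicate 1 (0.0974) or 4T1-S replicate 1 (0.132) or 2 (0.171), with normexp (0.0606) and with no filter on dim probes (0.109). Of 12 intracellular partners of galectins, limma called 0 of 12, with a median of 0.050 and 1 at an unadjusted p under 0.05. The brightest of them, the autophagy receptor Sqstm1, gave 67.8 and 88.2 in 4T1-S, against 51.3 and 72.8 in 4T1-A, with overlapping arrays and a difference of 0.34 ± 0.25 (adjusted p = 0.426).

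**Figure D4:**
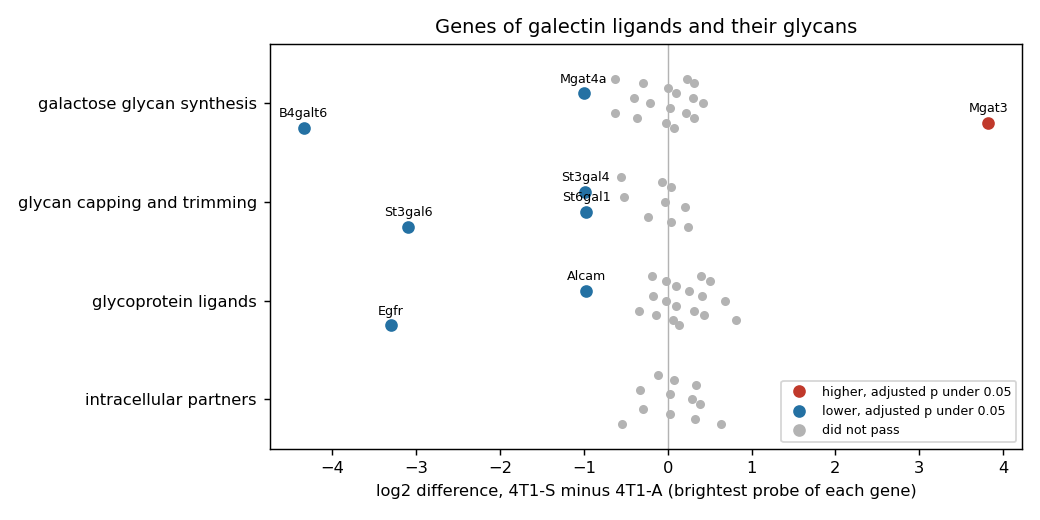
Log2 difference (4T1-S minus 4T1-A) of each tested gene in 4 lists of galectin ligands, partners and glycan enzymes, by its brightest probe. Red points rose, blue points fell and grey points did not pass at an adjusted p under 0.05. Mgat3 is the 1 gene that rose, and St3gal6, St3gal4 and St6gal1 are the capping genes that fell. The fitted points of Mgat3 and B4galt6 are not bounds, since each was not above background in 1 sub-line.

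The cells were checked against markers of cell types that could be present. All 6 epithelial markers were well above background on all 4 arrays. Of these, Krt8 and Krt18 did not pass, and Epcam, Krt14, Krt19 and Cdh1 fell in 4T1-S, with log2 differences of -3.78, -2.06, -2.61 and -1.11. The call of Cdh1 was lost with no filter on dim probes (adjusted p = 0.0814) and without 4T1-S replicate 1 (0.106) or 2 (0.0946), and that of Krt19 with no filter (0.0605). These falls moved with those of the sialyltransferases and of Egfr, and their part in those results was not tested. Of 7 leukocyte markers, 4 were tested and limma called 0, with 2 at an unadjusted p under 0.05, and the summed scaled signal of the list was 0.810 and 0.846 in 4T1-S, against 0.876 and 0.986 in 4T1-A. Of 7 fibroblast markers, 4 were tested, 1 rose, 0 fell and 3 were at an unadjusted p under 0.05, with a median difference of 0.71. Across all 16170 genes, 4411 were under that unadjusted p. Col1a1 rose, but it was not well above background in 4T1-A and passed the filter only through 4T1-S. Its level in 4T1-S was higher by at least 3.61-fold, a bound formed as for Mgat3. Its fitted difference of 1.95, which enters the median of 0.71, is not a difference of measured levels. The call was lost with no filter on dim probes (adjusted p = 0.0853) and without 4T1-S replicate 2 (difference 1.74). Pdgfra (0.89), Col1a2 (0.53) and Acta2 (-0.33) did not pass. The list summed to 26.4 and 14.98 in 4T1-S, against 29.1 and 19.9 in 4T1-A, and most of each sum was Acta2. None of 3 endothelial markers was well above background on any array.

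**Figure D5:**
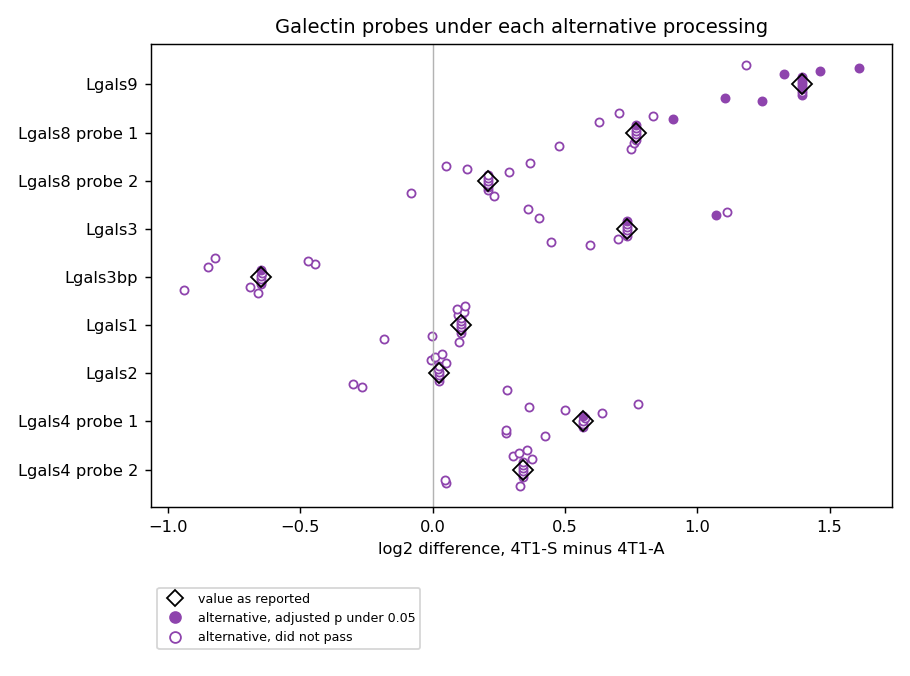
Log2 difference (4T1-S minus 4T1-A) of the 9 tested galectin probes as reported (diamonds) and under each alternative processing other than the mean of a gene's probes (circles, filled where the adjusted p was under 0.05, and spread vertically for visibility). Lgals9 stayed between 1.11 and 1.61, and Lgals1, Lgals2 and probe 2 of Lgals8 crossed 0.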

How the data were processed

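Total RNA of 4T1-S and 4T1-A (2 arrays each) was labelled with Cy3 and hybridised to 1-colour Agilent arrays. Per the submitters' processing notes and the file headers, the authors extracted spot intensity values with Agilent Feature Extraction 9.1, and the processed intensity is background-subtracted and spatially detrended, with surrogates for low signals and no scaling between arrays. Values in the authors' deposited series table are a linear ratio to the 75th percentile of the array, as found by setting them against the scanner files. Its scale and direction are therefore known and it is not centred, and its column medians were 0.098 and 0.091 (4T1-S) and 0.078 and 0.076 (4T1-A). Genome build and annotation are not given in the sources used here.

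From these, each intensity was divided by the 75th percentile of its array and log2 was taken, over 43379 spots other than controls. Spots with an outlier flag (5 to 9 per array) were left out and spots of a probe were averaged. Gene names came from the file of 4T1-S replicate 2, since 47 names in that of 4T1-A replicate 1 differ. For genes outside the family, 22944 of 41174 probes were named by RefSeq accession (table of GRCm38.p6), 6664 by symbol and 3108 by synonym, and 8458 kept the file's name. In R 4.3.3, limma 3.58.1 fitted every probe, and its 2-sided moderated test (lmFit, eBayes) had 2 residual and 5.47 prior degrees of freedom. The procedure was tested on simulated data. Members and lists were chosen with earlier results of these data known. The genes named outside the family are, by rule, up to 3 rises and 3 falls per list, or else its brightest tested member, and the 3 genes nearest in profile to the member with the largest called rise (none fell). The 14 alternatives changed the background correction, scaling, filter, fitted unit, variance model, source of values, replicate block and arrays.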

Additional observations from a re-analysis of the deposited data

How the results depend on the processing

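The count of galectin probes called, 1 as reported, became 0 with no filter on dim probes and 5 with the replicate block, and ranged from 0 to 3 when each array was left out in turn. The count over all probes, 1075 as reported, was 547 with normexp, 302 with no filter, 585 with probes above background on all 4 arrays, 4667 with the replicate block, and 445 to 2280 with 1 array left out. The count of ligand and glycan genes, 8 as reported, was 5 with normexp, 4 with no filter, 13 with the replicate block, and 4 to 9 with 1 array left out. The calls higher and lower over all probes were 517 and 558 as reported, 224 and 1159 with scaling to the array median, 308 and 581 with quantile normalization, 96 and 206 with no filter, 3006 and 1661 with the replicate block, and, with 1 row per gene, 641 and 487 (brightest probe) or 802 and 535 (mean of probes). They were 191 and 335 without 4T1-S replicate 1, and 140 and 305 without 4T1-S replicate 2. The median difference of all probes was 0.11 as reported and -0.18 with scaling to the array median. Signs reversed for Lgals1 with scaling to the array median (-0.18) and quantile normalization (-0.0037), for Lgals2 with both (-0.27 and -0.30) and without 4T1-A replicate 2 (-0.0047, the lowest of a range up to 0.0486 with 1 array left out), and for the A_52_P598128 probe of Lgals8 with scaling to the array median (-0.082). The cause was not tested. Same-numbered arrays deviated together (r = 0.443 across probes), but the labels do not say what a number marks, and with 2 pairs the samples share only a number. With the replicate block, Lgals9, Lgals8 (A_51_P316981), Lgals3 and Lgals4 (A_52_P634250) were called higher and Lgals3bp lower. A slide block was not run, since there is 1 slide.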

Other observations

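Other genes with a galectin fold were on the array. Lgalsl, a galectin-related protein without the usual sugar-binding residues, had a scaled signal of 5.81 and 8.94 in 4T1-S, against 7.68 and 8.44 in 4T1-A, and the arrays overlapped (-0.16 ± 0.25, adjusted p = 0.728 by limma). Grifin, a galectin-related protein of the lens, had 0.155 and 0.141 in 4T1-S, against 0.0868 and 0.135 in 4T1-A (0.45 ± 0.25, adjusted p = 0.300). Lgals12, a galectin of adipocytes, and Lgals6, a near-identical copy of Lgals4 found in some mouse strains, were not well above background on any array.

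The promoter windows of the members were also searched, on both strands, for TTCCNGGAA, a narrow form of the STAT site, and for the AP-1 site TGANTCA. None of the 7 windows, which do not include Lgals1, held either, against 1.15% and 7.81% of all 32851 windows. Looser forms of the STAT site were not searched, so their absence is not shown.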
